A study of Homo sapiens with 4 samples.

Results

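The tubulin genes of HCT116, a human colorectal carcinoma cell line, were followed through a knockdown experiment on the long noncoding RNA LINC00152. The members were taken by gene symbol, with no measured value used: 4 alpha-tubulins (TUBA1A, TUBA1B, TUBA1C and TUBA4A), 5 beta-tubulins (TUBB, TUBB2A, TUBB3, TUBB4B and TUBB6) and the gamma-tubulin TUBG1. All 10 were found, among 19974 genes in the tables. HCT116 cells received either a scramble siRNA (si-NC) or an siRNA against LINC00152 (si-152), each at 100 nM, and RNA was taken 36 h later from 2 biological replicates per group. Both groups are the same cell line and both were transfected, so si-NC carries whatever transfection itself does, and a single line stands behind every value. LINC00152 was not analysed here in these libraries, so its knockdown was not checked. The levels are in FPKM, fragments counted per length of transcript and per size of library, a unit read from the values. Because it corrects for length, it allows genes to be compared with each other.

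Alpha-tubulin and beta-tubulin join as dimers, and the dimers stack into microtubules, the tracks of the spindle and of transport inside the cell. Gamma-tubulin, in a ring-shaped complex at the centrosome, seeds new microtubules. Vertebrates keep several genes for each family, whose proteins differ mostly in the acidic tail that projects from the microtubule and is the target of enzymes adding or removing tyrosine and glutamate. Cells also sense free tubulin dimers: when dimers are in excess, the factor TTC5 recognises the first residues of a nascent tubulin chain and the messenger RNA is degraded.

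The coding sequences show both features. The first 30 coding bases of 5 members are given here because they carry the residues that TTC5 reads. The capitals mark the first 4 codons, which spell methionine, arginine, glutamate and cysteine in all 4 alpha-tubulins and methionine, arginine, glutamate and isoleucine in all 5 beta-tubulins. In TUBG1 a proline codon stands at the second place.
TUBA1B: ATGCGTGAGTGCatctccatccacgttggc
TUBA4A: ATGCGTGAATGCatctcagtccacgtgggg
TUBB4B: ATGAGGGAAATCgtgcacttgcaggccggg
TUBB3: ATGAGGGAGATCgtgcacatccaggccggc
TUBG1: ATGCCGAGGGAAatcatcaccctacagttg

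The last 30 coding bases encode the end of the tail, and the capitals mark the stop codon. They are shown for 2 alpha-tubulins and 3 beta-tubulins whose isotype shares are reported here. Those shares rest on telling whole transcripts apart, not on these ends alone.
TUBA1C: gacggagaggatgagggtgaagagtatTAA
TUBA4A: tatgaggacgaggatgagggagaagaaTAA
TUBB: ttcggtgaggaggccgaagaggaggccTAA
TUBB3: gaggagtcggaggcccagggccccaagTGA
TUBB4B: gaggaggaggctgaggaggaggtggccTAG

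TUBA1C ends in a tyrosine codon, tat, which is the residue that vasohibins remove and that the ligase TTL puts back. TUBA4A ends in a glutamate codon, gaa, and encodes no such tyrosine. TUBB3 ends in a lysine codon, whereas TUBB and TUBB4B end in alanine codons. At the protein level TUBA1A and TUBA1B differed at 2 of 451 aligned positions and TUBA1B and TUBA1C at 9, and TUBB and TUBB4B were 97.5% identical. An alpha-tubulin and a beta-tubulin shared between 39.7% and 41.4% of aligned positions. The sequences come from the GENCODE v29 transcripts of GRCh38, the build named in the processing notes.

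Such likeness matters for the levels, because a sequencing read that matches several genes has to be divided or dropped. Of the 100-base windows in the transcript of TUBA1B, 37.2% were also found, letter for letter, in a transcript of another gene. The share was 18.3% for TUBA1A and 11.5% for TUBA1C, and these 3 genes were each other's main partners. They lie in a cluster on chromosome 12, with TUBA1B at 49127782 to 49131397, TUBA1A at 49184796 to 49189324 and TUBA1C at 49188736 to 49274603. TUBA1A and TUBA1C overlap there on opposite strands, and whether the counting used strand is not given in the sources used here. For TUBB2A the share was 56.4%, mostly with TUBB2B. TUBG1 shared 14.95% of its windows, all with TUBG2. For TUBB3 it was 89.0%, and all of these windows were found in AC092143.1, an annotated gene that overlaps TUBB3 on the same strand of chromosome 16. The remaining members lie apart from these. On chromosome 6 TUBB2A spans 3153669 to 3157526. TUBB3 spans 89921392 to 89938761 on chromosome 16, TUBB4B 137241213 to 137243707 on chromosome 9 and TUBB6 12307669 to 12344320 on chromosome 18. TUBA4A spans 219249711 to 219278170 on chromosome 2 and TUBG1 42609676 to 42615234 on chromosome 17. TUBB, TUBB4B, TUBA4A and TUBB6 had few or no shared windows of 100 bases, at 5.10%, 2.86%, 1.84% and 0. With windows of 50 bases their shares were 18.2%, 9.89%, 5.25% and 0.993%, so TUBB is less clearly set apart if reads were short. Matches of TUBB to alternate copies of its region were not checked. Between 43 and 57 genes per library had values above 0 but under 1e-06 FPKM, down to 7.53e-301, which whole reads cannot give. The levels of TUBA1A, TUBA1B, TUBA1C, TUBB2A, TUBB3 and TUBG1 are therefore uncertain as to which gene their reads were assigned to. For TUBB3 the doubt lies mainly between overlapping annotations.

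HCT116 used a small number of isotypes heavily. TUBB4B, TUBA1B and TUBA1C stood far above the other members. TUBB4B measured 362 and 479 FPKM after si-NC, against 326 and 427 FPKM after si-152. TUBA1B, the broadly expressed alpha-tubulin, measured 336 and 422 FPKM after si-NC, against 402 and 405 FPKM after si-152. The 2 exchanged places between libraries, with TUBB4B the higher in 3 of 4, so their order does not exceed the spread. TUBA1C measured 242 and 332 FPKM after si-NC, against 332 and 393 FPKM after si-152, below TUBA1B in all 4 libraries although their ranges overlapped.

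A wide gap followed. TUBB3, the class III isotype best known from neurons and from tumours that resist taxanes, measured 70.5 and 74.1 FPKM after si-NC, against 76.3 and 97.1 FPKM after si-152. TUBA1C exceeded it by 3.43-fold at least in each library. TUBB6, TUBG1 and TUBA1A came next, in that order in every library. TUBB6 measured 51.6 and 51.4 FPKM after si-NC, against 43.3 and 53.8 FPKM after si-152. TUBG1 measured 40.7 and 47.7 FPKM after si-NC, against 41.4 and 48.5 FPKM after si-152. The ranges of these neighbours overlapped, as did those of TUBG1 and TUBA1A. TUBA1A, an alpha-tubulin abundant in developing neurons, measured 35.9 and 41.1 FPKM after si-NC, against 30.9 and 40.2 FPKM after si-152.

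The lowest members were TUBB, TUBA4A and TUBB2A. TUBB measured 13.8 and 16.9 FPKM after si-NC, against 13.9 and 18.6 FPKM after si-152. TUBA4A measured 12.8 and 16.8 FPKM after si-NC, against 11.6 and 14.2 FPKM after si-152. TUBB2A measured 8.69 and 10.1 FPKM after si-NC, against 10.0 and 10.7 FPKM after si-152. The ranges of TUBB and TUBA4A overlapped, while TUBA4A lay above TUBB2A in every library. By mean level, TUBB4B stood at the 98.6th percentile of the 11222 genes tested.

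**Figure D1:**
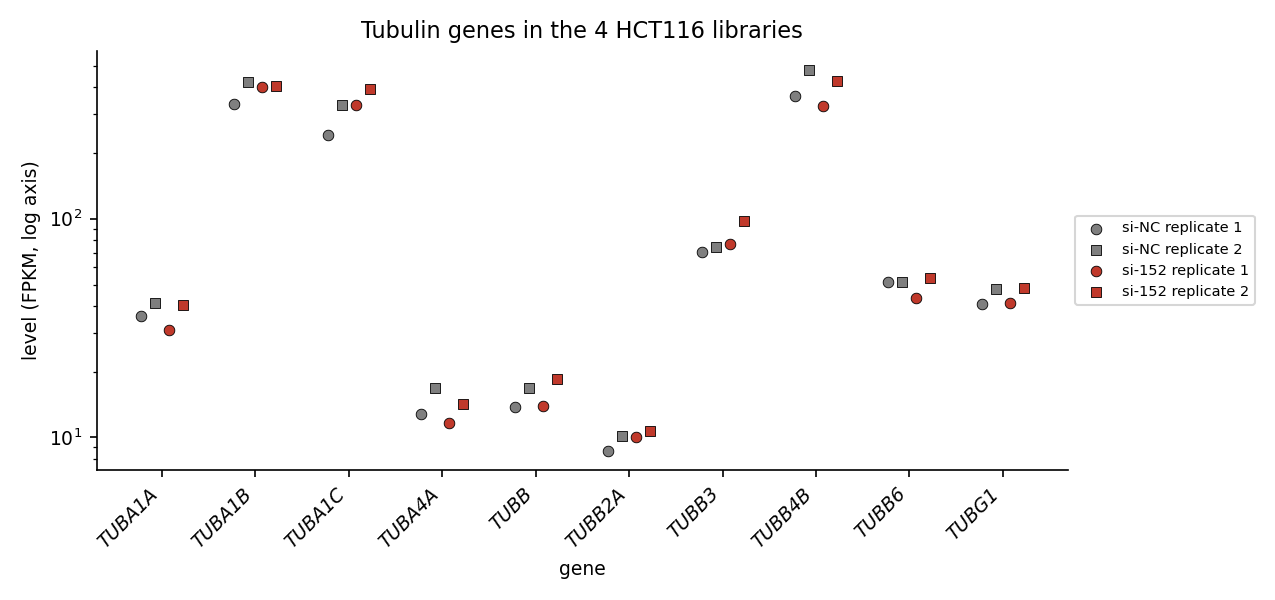
Level of each tubulin gene in FPKM on a log axis, with si-NC libraries in grey and si-152 libraries in red, circles for replicate 1 and squares for replicate 2. TUBB4B, TUBA1B and TUBA1C lie between 242 and 479 FPKM in all 4 libraries, and TUBB2A lies lowest, between 8.69 and 10.7 FPKM.

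The low level of TUBB, the class I isotype that most dividing cells express, has to be read beside its surroundings. TUBB lies in the major histocompatibility region, on chromosome 6 from 30720201 to 30725426. Of the 30 other protein-coding genes with a value that start within 500 kb of TUBB, 23 (76.7%) were under 1 FPKM in all 4 libraries and 10 were listed at 0 throughout. Over all protein-coding genes that share was 40.1%, and around the other 9 members it ran from 11.1% to 32.3%. Genes with housekeeping roles were among those at 0, such as FLOT1, 7.4 kb away, MRPS18B, a mitochondrial ribosomal protein, and DHX16, a splicing helicase. The others at 0 were PPP1R10, NRM, SFTA2, MUC21, MUC22, PSORS1C2 and POU5F1, not all of them genes with such roles. The region was looked up after the low value of TUBB had been seen, and FLOT1, MRPS18B and DHX16 were chosen then too. RPP21, a neighbour noticed in the same way, ranged from 4.49 to 31.9 FPKM between libraries. What part the region's low values have in the level of TUBB was not tested, and the level and share of TUBB may not stand for its true abundance.

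**Figure D2:**
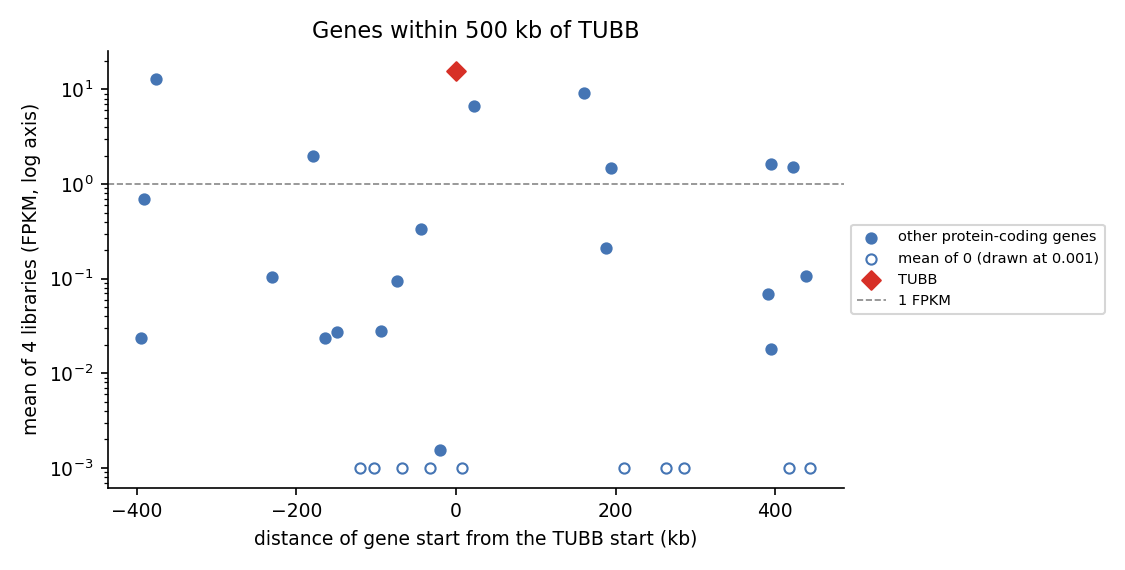
Mean FPKM of the 4 libraries, on a log axis, against the distance in kb of each gene's start from the start of TUBB, for the 30 protein-coding neighbours (blue) and TUBB (red diamond). Open circles at the bottom are the 10 genes with a mean of 0, and 23 of the 30 were below the dashed line of 1 FPKM in all 4 libraries.

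Most other alpha-tubulin and beta-tubulin genes were under 1.05 FPKM, while TUBG2 and TUBE1 were at the level of the lower members. TUBA3C, TUBA3D and TUBA3E were listed at 0 in every library, and TUBB1 in all but si-152 replicate 2, where it was at 0.0154 FPKM. TUBA8, TUBAL3 and TUBB8 stayed below 1.05 FPKM. TUBB4A lay between 6.01 and 7.97 FPKM and TUBB2B between 1.79 and 2.47 FPKM. Among the minor families, TUBG2, the second gamma-tubulin, lay between 11.4 and 15.2 FPKM, TUBD1 (delta) between 5.37 and 5.999 FPKM and TUBE1 (epsilon) between 17.0 and 26.01 FPKM. The 5 of these genes that could be tested had log2 differences between -0.17 (TUBE1) and 0.11 (TUBG2), and 0 had an unadjusted p under 0.05 by limma. Of the 13 further tubulin genes on the list, TUBA4B was not analysed here.

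The cells behind these values carried the markers of their label. All 7 epithelial markers looked for, EPCAM and KRT8 among them, had mean levels between 23.2 and 1098 FPKM. Their summed level was 3236 and 3756 FPKM after si-NC, against 2575 and 3180 FPKM after si-152. By log2 difference 7 of 7 were lower in si-152, against 5137 of all 11222 genes tested (median -0.24, and -0.04 after quantile normalization). Of these markers 0 had an unadjusted p under 0.05 by limma. Of the 6 neuronal markers, ELAVL4 and STMN2 were listed at 0 in every library, and their sum, between 5.10 and 7.16 FPKM, came mostly from MAP2. Fibroblast markers summed to between 7.11 and 8.13 FPKM, mostly COL1A1, with COL1A2 and DCN at 0. Blood and immune markers summed to between 2.77 and 3.47 FPKM, mostly CD68, with PTPRC and HBB at 0. Endothelial markers summed to 0.0999 FPKM or less. The libraries summed to between 424754 and 534311 FPKM, and the number of reads behind them is unknown. In 6 genes a library was listed at exactly 0 while another held more than 20 FPKM, so a 0 is given here only as a listed value.

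Isotype use was expressed as the percentage of the summed level of all genes of a family within each library, a measure that a single scaling factor per library leaves as it is. TUBB4B carried most of the beta-tubulin level and TUBA1B and TUBA1C nearly all of the alpha-tubulin level. The beta sum includes TUBB as listed, so every beta share, and the ratio of the alpha to the beta sum, would differ if TUBB were higher than listed. TUBA1C made up 38.5% and 40.8% of the alpha sum in si-NC and 42.7% and 46.0% in si-152. Both si-152 libraries lay above both si-NC libraries, with means of 39.7% ± 1.60 (SD, n = 2) and 44.4% ± 2.39 (SD, n = 2). TUBA1B made up 53.5% and 51.9% in si-NC and 51.7% and 47.4% in si-152, and both si-152 libraries lay below, if narrowly. TUBA1A made up 5.72% and 5.05% in si-NC and 3.97% and 4.70% in si-152. TUBA4A, the isotype without an encoded tyrosine, made up 2.04% and 2.07% in si-NC and 1.49% and 1.66% in si-152. Since the shares of a family add up to 100%, a larger share of TUBA1C leaves smaller shares for the rest.

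Within the beta-tubulins, TUBB4B made up 70.3% and 74.8% in si-NC and 68.0% and 69.3% in si-152, with means of 72.6% ± 3.16 (SD, n = 2) and 68.7% ± 0.932 (SD, n = 2). TUBB3 made up 13.7% and 11.6% in si-NC and 15.9% and 15.8% in si-152, a mean difference of 3.21 percentage points. The groups did not overlap for either gene. TUBB6 overlapped, at 10.0% and 8.03% in si-NC and 9.03% and 8.74% in si-152. TUBB was at 2.67% and 2.63% in si-NC and 2.91% and 3.01% in si-152, and TUBB2A at 1.69% and 1.58% in si-NC and 2.09% and 1.73% in si-152.

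Groups of 2 cannot pass a permutation test. The exact two-sided permutation test gave p = 0.333 for every share whose groups did not overlap, the smallest value it can give here, before any adjustment over the 9 members' shares. Within the same-numbered pairs the differences were 4.13 and 5.24 percentage points for TUBA1C and -2.32 and -5.47 for TUBB4B, whose signs follow from groups that do not overlap. The shares of TUBA1A, TUBA1B and TUBA1C, and that of TUBB3, rest on the genes with many shared windows named above.

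**Figure D3:**
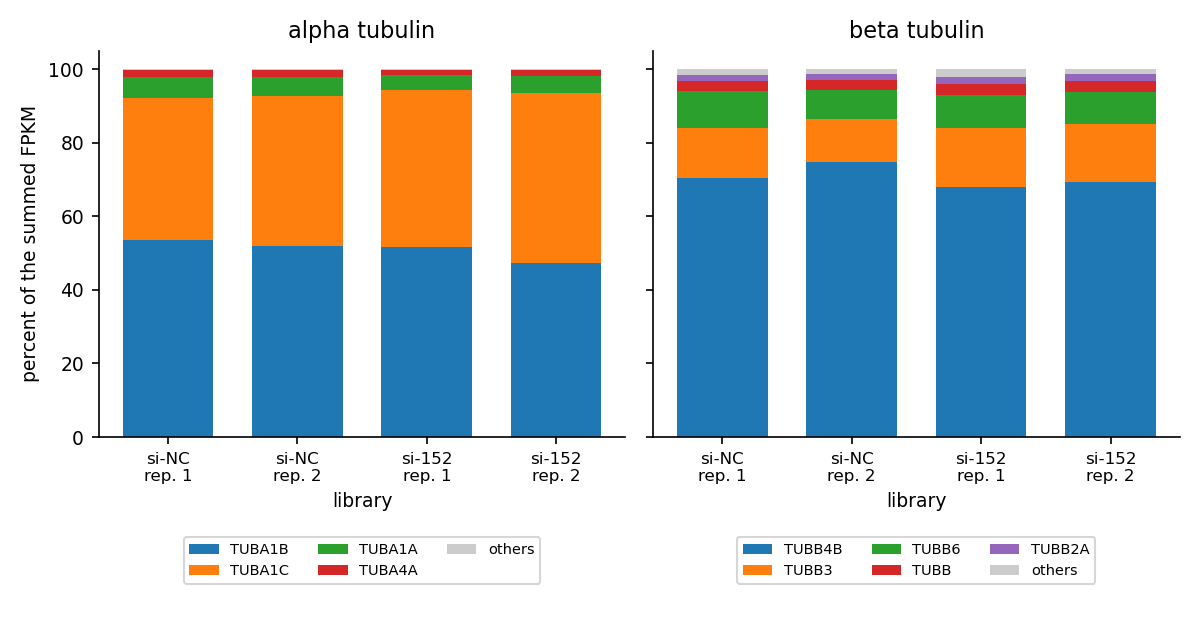
Percentage of the summed FPKM of the alpha-tubulins (left) and of the beta-tubulins (right) taken by each isotype, with 1 bar for each library. The TUBA1C band is wider in both si-152 bars (42.7% and 46.0%) than in both si-NC bars (38.5% and 40.8%), and the TUBB4B band is narrower.

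The mean alpha sum was higher and the mean beta sum lower in si-152. The alpha sum, over all alpha-tubulin genes with a value, was 628 and 814 FPKM after si-NC, against 777 and 855 FPKM after si-152. The beta sum was 515 and 641 FPKM after si-NC, against 480 and 616 FPKM after si-152. Each sum overlapped between the groups. Their ratio, alpha to beta, was 1.22 and 1.27 in si-NC and 1.62 and 1.39 in si-152, without overlap (p = 0.333, exact two-sided permutation test, the smallest it can give). The mean alpha sums were 721 and 816 FPKM, and si-NC replicate 1 stood apart as the lowest library, since si-NC replicate 2 lay between the 2 si-152 libraries. As transcripts, not proteins, were measured, the ratio does not give the supply of dimers.

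Gene by gene, no tubulin passed the test of si-152 against si-NC. In limma's moderated test on log2(FPKM + 1), 0 of the 10 members had an adjusted p under 0.05 over the 11222 genes tested, and all 10 adjusted p-values were 1.00. Over all genes 0.0178% passed, which is 2 genes. At an unadjusted p under 0.05, 0 members were higher and 0 lower, against 1.89% and 2.50% of all genes. The log2 differences of the members ran from -0.18 to 0.35, with a median of 0.05 against 0.02 for all genes. Because 1 is added to each value, these differences slightly understate the change of the low members. Fewer transcripts per cell and fewer cells of a kind cannot be told apart in such bulk RNA.

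TUBA1C had the largest difference. Its log2 difference was 0.35 (SE 0.24, 95% interval -0.18 to 0.88, unadjusted p = 0.172 by limma), and it was higher in si-152 in both pairs, by 0.45 and 0.24. The groups nevertheless touched, since si-NC replicate 2 (331.9 FPKM) was slightly above si-152 replicate 1 (331.5 FPKM). After quantile normalization its log2 difference was 0.49, with an unadjusted p of 0.00838 and an adjusted p of 0.646 by limma. TUBB3 came next, at 0.25 (SE 0.18, 95% interval -0.16 to 0.66).

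TUBB3 was the only member whose groups did not overlap, with both si-152 libraries above both si-NC libraries. Over all genes 16.5% were placed that way and 13.9% the opposite way, so 1 member above and 0 below, of 10, are near the background. In both same-numbered pairs 5 members were higher in si-152 (TUBA1C, TUBB, TUBB2A, TUBB3 and TUBG1), against 35.6% of all genes. Another 3 were lower in both (TUBA1A, TUBA4A and TUBB4B), against 27.3% of all genes.

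The remaining alpha-tubulins gave smaller differences. TUBA1B was at 0.10 (95% interval -0.41 to 0.61), and its pairs disagreed, at 0.26 and -0.06. TUBA1A was at -0.12 (95% interval -0.54 to 0.29) and TUBA4A at -0.18 (95% interval -0.62 to 0.26). Among the beta-tubulins TUBB4B was at -0.16 (95% interval -0.72 to 0.40), with nearly equal values in the pairs, -0.15 and -0.17. It nevertheless turned to 0.043 without si-NC replicate 2 and to 0.035 without si-152 replicate 1. TUBB6 was at -0.09 (95% interval -0.48 to 0.30) with pairs of opposite sign. TUBB and TUBB2A were at 0.07 and 0.13, and TUBG1 had the smallest difference, 0.02 (95% interval -0.37 to 0.42), with 0.02 in each pair. These intervals leave room for a change of the abundant isotypes by a log2 difference of 0.5 or more in several cases, so the data do not show that any tubulin was unchanged.

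**Figure D4:**
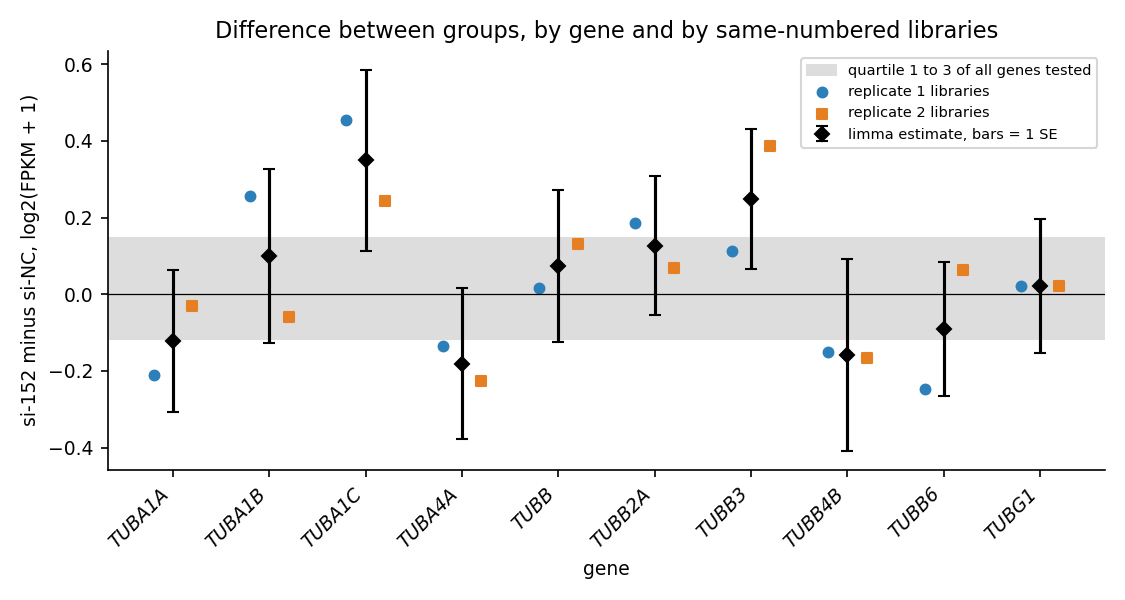
Difference between si-152 and si-NC on the log2(FPKM + 1) scale for each tubulin gene, as the limma estimate with bars of 1 SE (black) and within the replicate 1 libraries (blue circles) and the replicate 2 libraries (orange squares). The grey band is the interquartile range of all genes tested, -0.12 to 0.15, and TUBA1C (0.35), TUBB3 (0.25), TUBA4A (-0.18), TUBB4B (-0.16) and TUBA1A (-0.12) have their estimates outside it.

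The tubulins were higher in replicate 2 than in replicate 1 of both groups. In si-NC 9 of the 10 members were higher in replicate 2 than in replicate 1, and in si-152 all 10 were, with median log2 differences of 0.25 and 0.29. Over all genes tested the same medians were -0.11 and -0.01, and 4101 and 5468 of 11222 genes were higher in replicate 2. TUBB6 in si-NC was the exception, at 51.6 and 51.4 FPKM. The summed FPKM of the libraries also rose, from 463016 to 534311 in si-NC and from 424754 to 507094 in si-152. As a percentage of that sum, the 10 members went from 0.2535 to 0.2792 in si-NC and from 0.303 to 0.2975 in si-152. Such a sum rests mostly on abundant genes, so the median of all genes is no like comparison for abundant members. Whether other genes of similar level rose as much was not tested. What sets the replicate 2 libraries apart was not tested.

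The machinery that folds and handles tubulin was described from lists of genes by role. Prefoldin and the TRiC chaperonin receive and fold new tubulin, and 0 of their 14 genes passed an unadjusted p of 0.05 (median log2 difference -0.10, with 5 higher and 9 lower, and 0.03 after quantile normalization). Without si-152 replicate 2 the median was -0.32 and 4 genes passed, and without si-152 replicate 1 it was 0.03. The extremes were 2 TRiC subunits in opposite directions, CCT5 at 0.39 (SE 0.19), from 121 and 137 FPKM to 158 and 180 FPKM, and CCT8 at -0.38 (SE 0.19), from 157 and 159 FPKM to 110 and 133 FPKM. Neither CCT5 nor CCT8, picked as extremes of the list, overlapped between the groups. Over all genes 16.5% were placed above and 13.9% below in that way. The prefoldin gene PFDN6, also on chromosome 6 and picked out after its values were seen, was at 0.524 to 1.45 FPKM, whereas the other prefoldin genes lay between 26.7 and 367 FPKM.

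The cofactors TBCA to TBCE carry folded tubulin to the finished dimer. Of 7 genes in that list 1 was lower at an unadjusted p under 0.05, against 2.50% of all genes. It was TBCA, a chaperone that holds beta-tubulin. TBCA measured 259 and 334 FPKM after si-NC, against 155 and 246 FPKM after si-152, a log2 difference of -0.59 (SE 0.26, unadjusted p = 0.0480, adjusted p = 1.00 by limma). Its si-152 libraries both lay below its si-NC libraries, as in 13.9% of all genes. As TBCA was chosen by its p-value, that placement adds no support. The unadjusted p of TBCA was 0.102 with no filter on low values and 0.0827 with size factors, at log2 differences of -0.59 and -0.61. TBCA no longer passed without si-NC replicate 2 (log2 difference -0.41) or si-152 replicate 1 (-0.26), and it passed without si-NC replicate 1 (-0.77) or si-152 replicate 2 (-0.92). TBCB, the partner of alpha-tubulin, named for its role, was at -0.20 (SE 0.20).

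Of the factors in tubulin autoregulation, TTC5, named for its role, measured 3.53 and 3.88 FPKM after si-NC, against 3.68 and 3.34 FPKM after si-152. CNOT11, a subunit of the deadenylase complex that TTC5 recruits, was at 37.5 and 33.7 FPKM after si-NC, against 39.1 and 38.1 FPKM after si-152, and CNOT1, its scaffold, had a log2 difference of 0.14 (SE 0.24). Of the 3 genes tested 0 passed an unadjusted p of 0.05. SCAPER, the adaptor between them, reached 1 FPKM in fewer than 2 libraries and was not tested.

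Tubulin-modifying enzymes were mostly low. Of 20 with a value 15 were tested, 0 passed an unadjusted p of 0.05, and their median log2 difference was 0.02. Among those with a mean of at least 10 FPKM TTLL12 was the highest by difference, with 27.4 and 25.8 FPKM after si-NC, against 32.8 and 32.1 FPKM after si-152, a log2 difference of 0.28 (SE 0.16). TPGS1, a subunit of the glutamylase complex, was the lowest, at -0.13 (SE 0.26). TTL, the tyrosine ligase, named for its role, was at 0.02 (SE 0.19). ATAT1, the alpha-tubulin acetyltransferase, picked out after its values were seen, was at 0.0706 FPKM or less, and it is 1 of the neighbours of TUBB counted above. The 20 genes of the gamma-tubulin complex and augmin, which seed microtubules with TUBG1, had a median of 0.05 and 0 genes at an unadjusted p under 0.05. Their extremes above 10 FPKM were MZT1 at 0.07 (SE 0.18) and MZT2A at -0.23 (SE 0.26), both small subunits of that complex.

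Proteins that bind microtubules held the other genes past an unadjusted p of 0.05, 2 of 22 and both higher in si-152, against 1.89% of all genes. MAPRE1, the end-binding protein EB1 that tracks growing tips, measured 43.5 and 38.4 FPKM after si-NC, against 57.8 and 56.2 FPKM after si-152, a log2 difference of 0.47 (SE 0.17, unadjusted p = 0.0181, adjusted p = 1.00 by limma). MAP1S, a microtubule-associated protein, measured 11.5 and 12.3 FPKM after si-NC, against 16.9 and 17.1 FPKM after si-152, a log2 difference of 0.48 (SE 0.17, unadjusted p = 0.0183, adjusted p = 1.00 by limma). For both genes the groups did not overlap, a placement that 16.5% of all genes had in that direction. As both were chosen by their p-values, it adds no support. With a library left out, MAPRE1 no longer passed without si-NC replicate 2 (log2 difference 0.38) or si-152 replicate 1 (0.45). MAP1S no longer passed without si-NC replicate 1 (0.43), si-152 replicate 1 (0.49) or si-152 replicate 2 (0.47), differences near that from all libraries. STMN1, which sequesters tubulin dimers and was picked out after its values were seen, measured 186 and 194 FPKM after si-NC, against 128 and 161 FPKM after si-152 (log2 difference -0.40, SE 0.20, unadjusted p = 0.0709 by limma). The list had a median of 0.07, with 16 higher and 6 lower, against a median of 0.02 for all genes, with 6085 of 11222 higher. The list's median was 0.24 without si-NC replicate 1 and -0.12 without si-NC replicate 2.

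**Figure D5:**
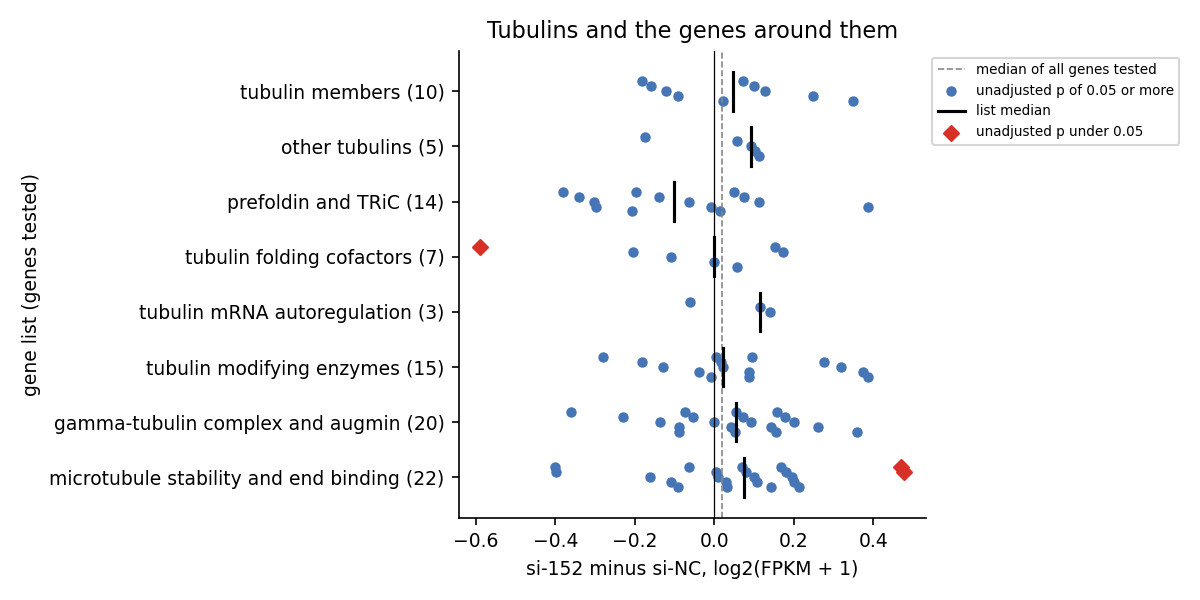
Difference between si-152 and si-NC on the log2(FPKM + 1) scale for each tested gene of 8 lists, with black ticks at the list medians and a dashed line at the median of all genes (0.02). Red diamonds mark the 3 genes with an unadjusted p under 0.05, TBCA at -0.59 and MAPRE1 and MAP1S at 0.47 and 0.48, and none of them is a tubulin.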

How the data were processed

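RNA from 4 libraries (si-NC and si-152, 2 biological replicates each, grouped by the sample titles) was analysed. For each library the authors supplied a table of gene symbols and values, which were read here as FPKM from the values themselves. The processing notes name Trimmomatic, TopHat, HISAT2, HTSeq, DESeq and GRCh38, while the tool that made the FPKM and its annotation are not given in the sources used here. Symbols read as dates (28, of which 2 were repeats) were kept. Depth is unknown, so no counting error is given.

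No scaling was applied. A gene was tested if 2 or more libraries reached 1 FPKM (11222 genes), as log2(FPKM + 1). The fit used limma 3.58.1 (R 4.3.3) with a mean-variance trend, group as the only term, and Benjamini-Hochberg adjustment over all of them. The code was also run on simulated data with independent noise in each library. That run left out the shared deviation of same-numbered libraries described below, so it does not test the fit under it. The study's own test, DESeq, needs counts and was not used. Shares were computed within each library and compared by exact permutation (scipy 1.17.1). Positions, coding sequences and shared windows came from GENCODE v29, and the neighbours of each gene from RefSeq (GRCh38.p14). The coding ends of some members are not reported here. Proteins were translated and aligned with Biopython 1.88. Named genes were all members, every other tubulin, list genes with an unadjusted p under 0.05, and otherwise the extremes of a list above 10 FPKM, plus those whose text says that they were picked later or for a role. The members and lists were chosen with earlier results of these data known. Alternatives to the pseudocount, filter, scaling, trend, replicate block and libraries were run.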

Additional observations from a re-analysis of the deposited data

How the results depend on the processing

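With 2 libraries per group, the directions of most tubulin genes turned on single libraries. With each library left out in turn, where a lone library is assumed to vary like the other group, the number of members lower in si-152 ran from 1 to 7 against 4. Over these 4 fits the log2 difference ran from -0.31 to 0.064 for TUBA1A, -0.066 to 0.26 for TUBA1B, -0.36 to 0.0018 for TUBA4A, -0.12 to 0.27 for TUBB, -0.36 to 0.043 for TUBB4B, -0.24 to 0.062 for TUBB6 and -0.090 to 0.13 for TUBG1. Among other genes it ran from -0.10 to 0.22 for TUBB2B, -0.074 to 0.28 for TUBB4A, -0.073 to 0.30 for TUBG2, -0.47 to 0.12 for TUBE1, -0.13 to 0.42 for CNOT1, -0.57 to 0.31 for TPGS1, -0.027 to 0.17 for MZT1 and -0.60 to 0.14 for MZT2A. Among the shares, that of TUBB6 turned, from -1.14 to 0.862 points. In these fits TUBA1C stayed between 0.12 and 0.58, TUBB2A between 0.03 and 0.23 and TUBB3 between 0.08 and 0.42. At a pseudocount of 0.1, without the filter or the trend, with at least 1 FPKM in every library or with other scaling, no member turned, and under no alternative did a member reach an adjusted p under 0.05 by limma. With these settings 0 or 1 of all genes passed adjustment, against 45 to 78 with a library left out. Without the filter 362 genes were higher and 434 lower at an unadjusted p under 0.05, 1 other tubulin and 3 modifying enzymes among them. Without the filter, or with size factors, TBCA no longer passed an unadjusted p of 0.05, at log2 differences of -0.59 and -0.61.

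The replicate numbers are not stated to mark a shared batch. Across genes, the 2 libraries numbered 1 deviated together, with a correlation of 0.52. With the replicate block, the unadjusted p was 0.0186 for TUBA1C (adjusted p = 0.204), 0.00701 for CCT5, 0.0108 for CCT8, 0.0311 for TTLL12, 0.00931 for STMN1, 0.00117 for TBCA, 0.00198 for MAP1S and 0.00217 for MAPRE1 by limma. At an unadjusted p under 0.05 it gave 1 tubulin member against 0, 4 prefoldin and TRiC genes against 0, 4 modifying enzymes against 0, 2 genes of the gamma-tubulin complex and augmin against 0 and 4 microtubule-binding genes against 2. Over all genes 78 then passed adjustment against 2, with 0 tubulins among them, and 981 were higher and 912 lower at an unadjusted p under 0.05 against 212 and 280. The causes were not tested.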
